A study of Bos taurus with 12 samples.

Results

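The genes described here are the cell cycle and kinetochore gene families in peripheral white blood cells (PWBCs) of beef heifers. They were taken by name, as symbols that start with CENP, CDC (CDC42 left out), CDK, MCM, ORC, BUB, AURK, PLK, NEK, SMC, NCAP, E2F, SPC2, NUF2, NDC80 or TOP2, CCN followed by a letter or KIF followed by a digit, together with *OIP5*. A member also needed at least 10 counts in at least 6 of the 12 libraries. Of the 27607 genes counted, 2930 could be given a name from the study's supplementary tables, and 58 of those were members. All 58 passed both this count rule and the expression filter of the test, which kept 13012 genes.

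The 12 Simmental-Angus cross-bred heifers went through 1 common program of oestrus synchronization with GnRH, a progesterone device and prostaglandin, and were inseminated with semen of a single sire. Blood was drawn 2 days before artificial insemination (AI), so after the synchronization had begun in every animal. The 6 fertile heifers conceived at that AI, and the 6 subfertile heifers did not conceive at AI or in about 60 days of natural service with bulls. The groups were assigned afterwards from these outcomes and matched for age, body weight and reproductive tract score (RTS), which was 5 in 1 heifer of each group and 4 in the others. Each heifer gave 1 library, so the replicates are animals. The counts on genes summed to between 14010736 and 21278761 per library.

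Blood leukocytes are mostly out of the cell cycle, and transcripts of the division machinery in blood come largely from the small share of cells that are dividing. Before DNA replication, the origin recognition complex (ORC) and CDC6 load the MCM helicase on origins, and CDC7 and MCM10 help to fire them, while E2F factors control the transcription of many S phase genes. In mitosis the centromere is marked by the histone variant CENP-A, on which a group of CENP proteins builds the inner kinetochore. The NDC80 complex then binds spindle microtubules, BUB1B holds the cycle until all chromosomes are attached, and condensin and topoisomerase II shape the chromosomes. Several families share a name with this machinery and do other work, such as the kinesins of vesicle transport, the transcriptional CDKs and the cyclins of membrane signalling. In these bulk samples, fewer dividing cells and less of a transcript per cell cannot be told apart.

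How a gene came to have a name bears on every count below. Among the 58 members, 15 are named in the study's table of differentially expressed genes, which was made from the same 12 libraries and the same comparison of groups. For these 15 the differences between groups, and the counts of calls that include them, are a description of that selection and no independent test. The other 43 came largely through tables of co-expression networks, and their absence from that table makes a small difference likely. RefSeq lists 241 protein-coding symbols of the same families in cattle, and 184 of them were not linked to an identifier here. The 15 members of the study's table all belong to a set of 28 members with roles in mitosis and DNA replication (the mitotic and replication members), and the other 30 members hold none. The division was made by family and role with earlier results known, and a few of the 30 also act in mitosis.

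One library stood apart in these levels, over a set of which 15 members were named through a comparison of the same groups. The subfertile library LM1259 (replicate 3) had the highest level of 22 of the 28 mitotic and replication members, whereas it was highest for 12.4% of all genes tested. It was at least 2-fold above the next library (log2 counts per 1000000, CPM, with a prior count of 2) for 12 of the 28, beside 0.646% of all genes, and no other library was so for any of them. Of these 12, 11 are in the study's table, which was made from the group that holds LM1259, so nothing is read from that share, and *CENPA* is outside it. The 15 members of the study's table were all highest there, and so were 7 of the 13 mitotic and replication members outside that table. The count of 22 thus holds 15 members picked for a difference between the groups, and nothing is read from it beside 12.4%. CPM is not scaled for transcript length, so levels are compared between heifers and not between genes. Over the 28 members, the median ratio of LM1259 to the middle of the other 11 libraries was 2.80. Over the remaining 30 members it was 1.01, and over the 15 members of the study's table it was 3.28. The 28 hold all 15 and the 30 hold none, so nothing is read from 2.80 beside 1.01. Among the 13 mitotic and replication members outside that table, 6 had a ratio of 2 or more, beside 0 of the 30 and 2.57% of all genes. Naming through co-expression with differentially expressed genes can favour such ratios, so nothing is read from this count either. The total count of LM1259, 16900242, had rank 4 of 12 from the lowest.

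The summed level of the 28 mitotic and replication members was 645 CPM in the lowest fertile library, 699 at the median and 722 in the highest. In subfertile heifers it was 632, 729 and 1229 CPM, the last in LM1259. Without LM1259 the subfertile values were 632, 708 and 770 CPM, and the groups overlapped in both cases. When each gene was first centred on its own median over the 12 libraries, so that abundant genes did not dominate, the median deviation of LM1259 was 1.42 (log2 CPM) and all 28 members were above their median there. The other 11 libraries had a median deviation between -0.33 and 0.21. The lowest were the fertile libraries LM1298 (-0.33) and LM1330 (-0.31), and the highest was the subfertile library LM1246 (0.21).

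**Figure D1:**
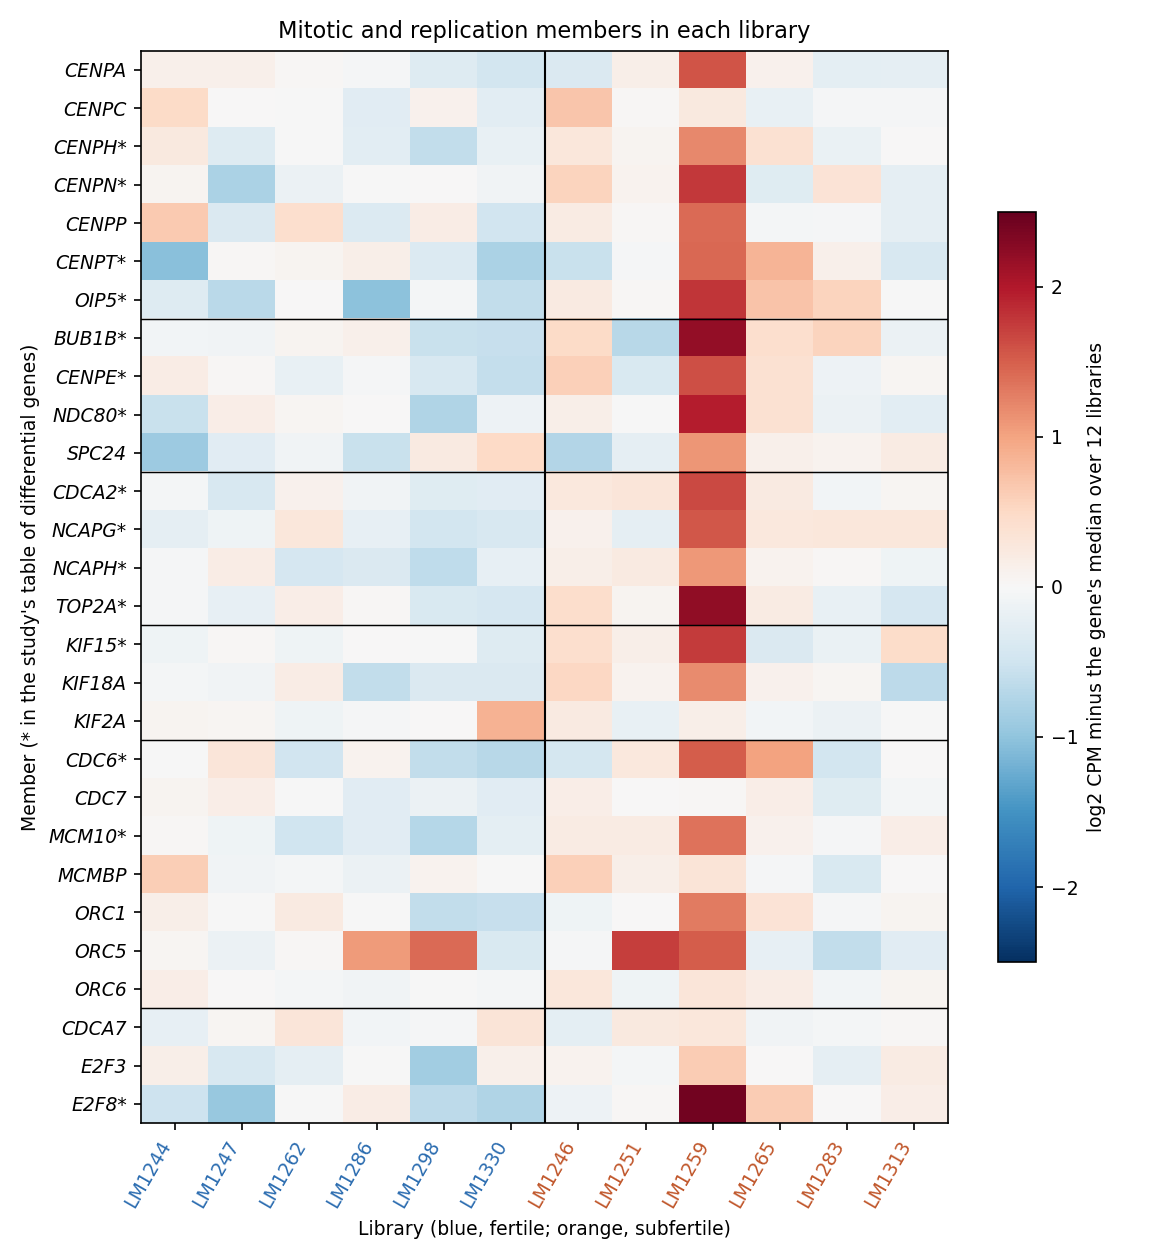
Level of each of the 28 mitotic and replication members (rows, grouped by role; an asterisk marks the 15 in the study's table of differentially expressed genes) in each of the 12 libraries (columns, fertile left and subfertile right), as log2 CPM minus the gene's median over the 12 libraries. The column of LM1259 is above the median for all 28 members, and ORC5 is the row with further high libraries in both groups.

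The centred values are also shown by set of genes in the plot of median deviations. In LM1259 the 15 members of the study's table had a median deviation of 1.65, the 13 mitotic and replication members outside it 0.64, and the 30 remaining members 0.01.

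**Figure D2:**
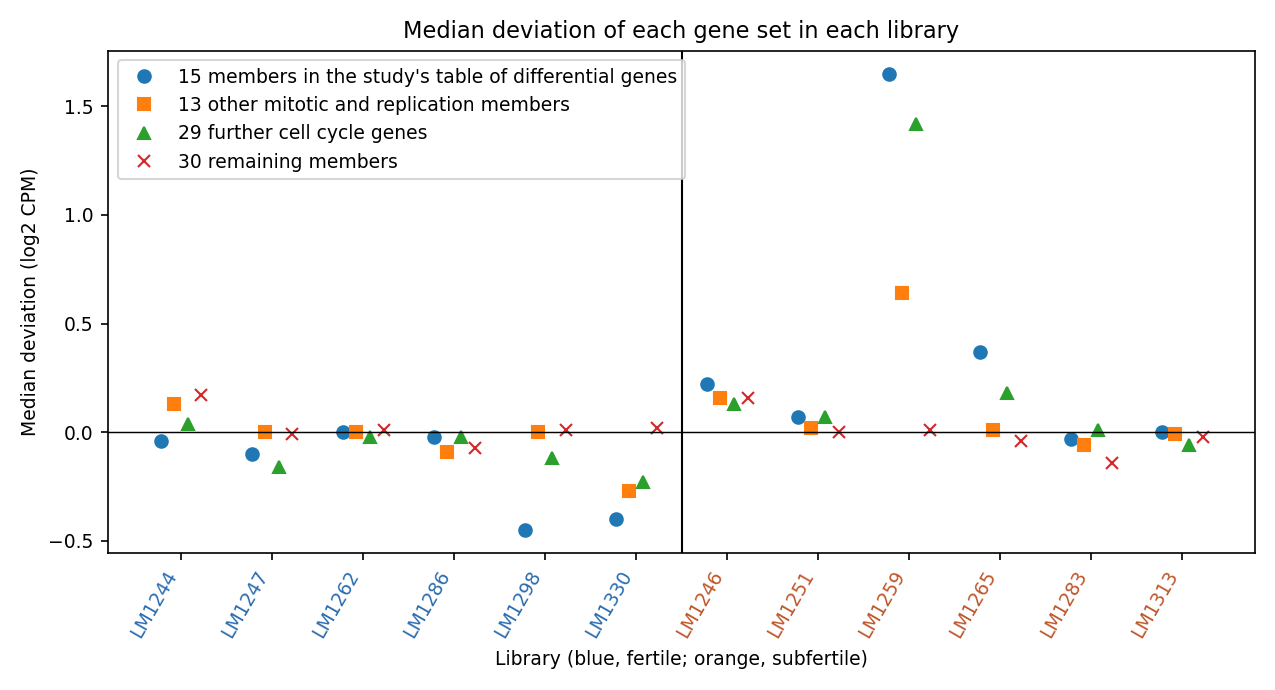
Median deviation (log2 CPM minus each gene's median over 12 libraries) in each library, for the 15 members in the study's table, the 13 other mitotic and replication members, 29 further cell cycle genes and the 30 remaining members. The 29 are the named genes of a list chosen with earlier results known, and 14 of them are in the study's table. LM1259 lies at 1.65, 0.64 and 1.42 for these sets in that order, and at 0.01 for the remaining members.

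Pairs of the 28 mitotic and replication members also varied together, with a median Pearson correlation of 0.58 over the 378 pairs and 12 libraries. Without LM1259 the median was 0.24 over 11 libraries. The same median over the remaining 30 members was 0.06 with all libraries and 0.08 without LM1259, and over all genes tested it was 0.00 in both cases. These are descriptions over libraries that share their preparation and scaling, and part of the members were named through co-expression.

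Markers of the blood cell types were read beside these levels as far as they had a name. Among the plasma cell markers, 3 of 5 were named, and their summed level was 291 to 491 CPM in fertile and 381 to 746 CPM in subfertile heifers, with the highest sum in LM1259. Of these, *JCHAIN*, the joining chain of secreted antibody, was 657 CPM in LM1259 and 561 CPM in the next library, whereas *PRDM1* (36.4 CPM) and *XBP1* (52.2 CPM) were not highest there. The T cell markers *CD3E* and *CD2* summed to 401 CPM in LM1259, the lowest of the 12 (475 to 902 CPM in fertile and 401 to 766 CPM in subfertile heifers). The B cell markers *CD79A* and *PAX5* summed to 501 CPM in LM1259, within the range of 367 to 750 CPM in fertile heifers. The fertile library LM1330 (replicate 6) had the highest sum of the named platelet markers, 287 CPM beside at most 130 CPM in subfertile heifers. Its sum of the erythroid markers *EPB42* and *TAL1* was also the highest, 355 CPM beside at most 172 CPM in subfertile heifers. Nearly all of it was *TAL1*, at 350 CPM, with *EPB42* at 5.44 CPM. LM1330 also had the highest sum of T cell markers (902 CPM) and rank 2 of 12 for NK cell markers (149 CPM). Its sums of plasma cell (291 CPM), monocyte (8.76 CPM) and neutrophil markers (21.7 CPM) were the lowest of the 12. The named NK cell (*PRF1*, *GZMB*), monocyte (*CD68*) and neutrophil (*CXCR2*, *S100A9*) markers were not highest in LM1259, at ranks 10, 9 and 11 of 12 by their sums. LM1259 had the lowest sum of the erythroid markers (49.6 CPM) and rank 10 of 12 for the platelet markers (68.7 CPM). Of the markers summed here, *EPB42*, *TAL1*, *JCHAIN*, *PAX5*, *GZMB* and *GP5* are in the study's table, made from a comparison of these groups. Nothing is read from the sums that hold them. In the comparison of groups described next, *JCHAIN* was called higher in subfertile heifers (log2FC of 0.59 ± 0.22), and *PAX5* (-0.51 ± 0.24), *EPB42* (-0.96 ± 0.38), *TAL1* (-0.82 ± 0.36) and *GZMB* (4.58 ± 2.04 CPM beside 9.23 ± 6.91 CPM in fertile heifers, SD, n = 6 each) were called lower. All 5 are genes of the study's table. The other named plasma cell markers, *PRDM1* (0.09 ± 0.18) and *XBP1* (-0.02 ± 0.10), were not called. Neither were *CD79A* of B cells (-0.15 ± 0.19) and *PRF1* of NK cells (-0.40 ± 0.19). The platelet markers *GP5* (-1.87 ± 0.89), *GP9* (-1.22 ± 0.76) and *ITGA2B* (-0.34 ± 0.29) were not called either. Without LM1330 their log2FC was -0.52, -0.33 and 0.01. Of the 12 fits that left out 1 library, *JCHAIN* was called in 11, *EPB42* in 9, and *PAX5*, *GZMB* and *TAL1* in 4 each. Without LM1259 the log2FC was 0.44 for *JCHAIN* and -0.50 for *PAX5*, and the unadjusted P rose to 0.0542 and 0.0763. Without LM1330, where it was 350 CPM beside 195 CPM in the next library, *TAL1* was -0.48. Without the fertile library LM1247, *GZMB* was -0.66. T and B cell markers were present in every library, whereas *PTPRC*, the marker of white blood cells as a whole, had no name here. No marker of these lists was at 0 in LM1259. The part of these cell types in the levels of the members was not tested.

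In the comparison of subfertile with fertile heifers by the quasi-likelihood test of edgeR, 11 of the 58 members were called higher in subfertile heifers and 0 were called lower. Called means an unadjusted P of 0.05 or less and an absolute log2 fold change (log2FC, subfertile minus fertile) of 0.5 or more, the thresholds of the study. Of all 13012 genes tested, 0.661% were called higher and 0.738% lower. All 11 are in the study's table, so nothing is read from this count beside that background. As a share of the 241 family symbols of RefSeq, the 11 make 4.56%, a share that takes every symbol without an identifier as not called. After Benjamini-Hochberg adjustment over all genes, 0 members passed 0.05 in edgeR (smallest adjusted P of 0.9998), in DESeq2 or in voom with limma, and 11 had an unadjusted edgeR P of 0.05 or less, beside 2.62% of all genes. DESeq2 called 15 members higher and voom 5, beside 0.784% and 0.576% of all genes. The 15 are the members of the study's table, which was also made with DESeq2, and the 5 are among them. Nothing is read from these counts.

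The count depended on single libraries. Without LM1259, 1 member was called higher, *OIP5*, while 0.607% of all genes were. Leaving out a fertile library also lowered the count, to 5 without LM1298, 6 without LM1330 and 7 without either LM1262 or LM1286. The levels of the groups overlapped for all 58 members, and did not overlap for 0.123% of all genes tested. Over the 28 mitotic and replication members the median log2FC was 0.54, and 0.21 without LM1259, where the median of all genes was 0.01 both times. Over the 13 of them outside the study's table it was 0.15, and 0.04 without LM1259. Over the 30 remaining members it was -0.03 in both fits, with 11 above and 19 below 0 in the fit of all libraries.

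**Figure D3:**
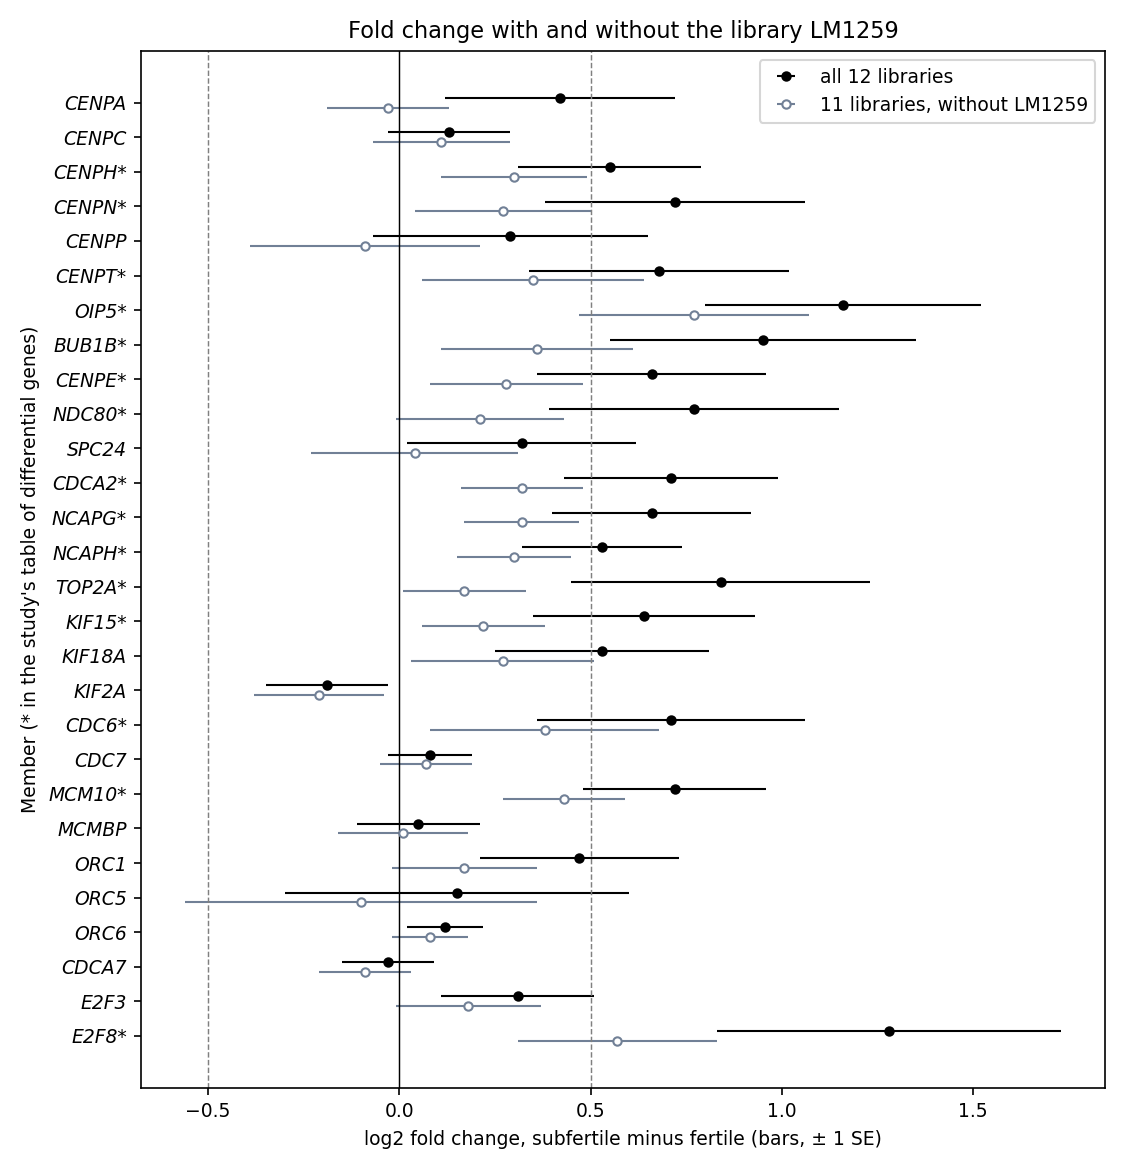
Fold change of the 28 mitotic and replication members as log2FC (subfertile minus fertile), with bars of ± 1 SE, from all 12 libraries (filled) and without LM1259 (open); dashed lines mark the threshold of 0.5 in each direction, and an asterisk marks members of the study's table. With all libraries the values run from -0.19 for KIF2A to 1.28 for E2F8, and without LM1259 those of OIP5 (0.77) and E2F8 (0.57) are above 0.5.

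The inner centromere and the loading of CENP-A are represented by 7 members, 4 of them in the study's table. All 7 had a log2FC above 0, beside 51.8% of all genes, and 2 were called higher, beside 0.661%. Both called members are in that table, so nothing is read from these counts. The median log2FC of the 7 was 0.55, and 0.27 without LM1259. *OIP5* (ENSBTAG00000010766), which encodes the beta subunit of the MIS18 complex that prepares centromeres for new CENP-A, had 0.791 CPM in the lowest fertile heifer, 1.23 at the median and 1.76 in the highest. In subfertile heifers the values were 1.72, 2.33 and 6.29 CPM. Thus 5 of 6 subfertile heifers were above every fertile heifer, and the sixth was within the upper end of the fertile range. The log2FC was 1.16 ± 0.36 (SE, n = 6 per group), and 0.77 ± 0.30 without LM1259. The counts of *OIP5* were low, between 14 and 115 reads per library.

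*CENPH* and *CENPN* belong to the inner kinetochore group of proteins that sits on CENP-A chromatin. *CENPH* was 4.10, 5.45 and 7.55 CPM (lowest, median and highest) in fertile heifers, and 5.67, 7.27 and 14.8 CPM in subfertile heifers. Each of the 6 subfertile levels exceeded the median of the fertile group, and 3 exceeded its maximum. Its log2FC was 0.55 ± 0.24, and 0.30 ± 0.19 without LM1259. *CENPH* was called in 6 of the 12 fits that left out 1 library, and not with voom or under library size alone. *CENPN* was 2.63, 4.47 and 4.91 CPM in fertile and 3.77, 5.44 and 16.2 CPM in subfertile heifers. Its log2FC of 0.72 ± 0.34 became 0.27 ± 0.23 without LM1259.

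*CENPT* links the inner kinetochore to the NDC80 complex. Its levels ran from 4.22 to 9.84 CPM in fertile heifers and were 6.01, 9.22 and 24.0 CPM in subfertile heifers, with a second high value of 16.0 CPM in the subfertile library LM1265. The log2FC was 0.68 ± 0.34, and 0.35 ± 0.29 without LM1259. *CENPC*, the member of this role with the highest mean CPM and a direct binder of CENP-A nucleosomes, had nearly the same median in both groups, 35.7 CPM in each. Its range was 29.3 to 49.6 CPM in fertile and 31.4 to 57.8 CPM in subfertile heifers, highest in LM1246 and in the fertile library LM1244. The log2FC was 0.13 ± 0.16, a difference within the spread of the groups (P = 0.504 by a two-sided exact permutation test on log2 CPM over 924 splits).

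Also among these members, and named after its values were seen, was *CENPA*, the centromeric histone itself. It was 42.3 CPM in LM1259 and 15.8 CPM or less in every other library. The fertile range was 10.3 to 15.6 CPM, and the log2FC of 0.42 ± 0.30 became -0.03 ± 0.16 without LM1259. LM1259 was thus far above the rest, and of the other 5 subfertile heifers 1 (LM1251, at 15.8 CPM) was just above the fertile range.

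The outer kinetochore and spindle checkpoint held 4 members, of which 2 were called higher, beside 0.661% of all genes. LM1259 was the highest library for all 4, beside 12.4% of all genes. Since 3 of the 4 are in the study's table, among them both called, nothing is read from these counts. The median log2FC of the 4, 0.72, was 0.24 without LM1259. Of the 12 fits that left out 1 library, 9 called *BUB1B* and 4 called *CENPE*. With voom neither was called, and under library size alone *CENPE* was not. *BUB1B* (ENSBTAG00000007237), the checkpoint kinase-like protein BubR1, was 4.29, 6.07 and 7.02 CPM in fertile and 3.93, 8.86 and 29.8 CPM in subfertile heifers. Both the lowest and the highest level of the 12 heifers were in the subfertile group, and 4 subfertile heifers were above every fertile one. Its log2FC of 0.95 ± 0.40 became 0.36 ± 0.25 without LM1259.

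*CENPE*, a kinesin that carries chromosomes to the spindle equator, was 8.88, 12.6 and 15.4 CPM in fertile and 10.3, 15.7 and 41.5 CPM in subfertile heifers. Its log2FC was 0.66 ± 0.30, and 0.28 ± 0.20 without LM1259. *NDC80*, the microtubule-binding subunit that names its complex, was 2.70, 4.44 and 5.18 CPM in fertile and 3.82, 4.82 and 18.4 CPM in subfertile heifers. The medians of the groups were close, and the log2FC of 0.77 ± 0.38 became 0.21 ± 0.22 without LM1259. The fourth member, a further subunit of the same complex, *SPC24*, had a log2FC of 0.32 ± 0.30, and 0.04 ± 0.27 without LM1259.

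In mitotic chromosome structure 4 of 4 members were called higher in edgeR, beside 0.661% of all genes. All 4 are in the study's table, so nothing is read from this count. *TOP2A* was not called with voom or with the reproductive tract score as a term and was called in 5 of the 12 fits that left out 1 library, and *CDCA2* was not called with voom. Without LM1259 none of the 4 was called, and their median log2FC went from 0.69 to 0.31. *TOP2A* (ENSBTAG00000019262), the topoisomerase that untangles sister chromatids, was 23.6, 29.0 and 35.2 CPM in fertile and 23.7, 34.6 and 148 CPM in subfertile heifers. The next library after LM1259 had 42.6 CPM, so that LM1259 was 3.47 times as high as any other. The log2FC of 0.84 ± 0.39 became 0.17 ± 0.16 without it.

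The condensin I subunits *NCAPG* and *NCAPH* compact mitotic chromosomes. *NCAPG* was 13.6, 16.1 and 22.8 CPM in fertile and 16.0, 22.6 and 54.8 CPM in subfertile heifers, and LM1259 was the only subfertile library above every fertile one. *NCAPH* was 11.4, 14.5 and 20.1 CPM in fertile and 16.4, 19.2 and 37.6 CPM in subfertile heifers, with every subfertile level above the median of the fertile group. The log2FC of *NCAPG* was 0.66 ± 0.26, and 0.32 ± 0.15 without LM1259. That of *NCAPH* was 0.53 ± 0.21, and 0.30 ± 0.15 without LM1259.

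*CDCA2*, which brings protein phosphatase 1 to chromatin at the end of mitosis, was 4.81, 5.59 and 6.91 CPM in fertile and 6.08, 7.55 and 20.2 CPM in subfertile heifers. Here too the 6 subfertile levels lay above the middle of the fertile group, and 4 lay above its maximum. The log2FC was 0.71 ± 0.28, and 0.32 ± 0.16 without LM1259. In this gene and both condensin subunits the differences of the 11 remaining libraries were about as large as 2 standard errors, and below the fold threshold.

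Of the 3 mitotic kinesins, 1 was called higher, *KIF15*, beside 0.661% of all genes. It is in the study's table, so nothing is read from this count. *KIF15* was called in 3 of the 12 fits that left out 1 library. With voom, under library size alone or with the reproductive tract score as a term it was not called. *KIF15*, a motor that keeps the spindle poles apart, was 15.5, 18.7 and 19.8 CPM in fertile and 15.1, 23.7 and 65.3 CPM in subfertile heifers. Its subfertile group held both the lowest and the highest level, and the log2FC of 0.64 ± 0.29 became 0.22 ± 0.16 without LM1259. *KIF2A*, a kinesin that shortens microtubules and also acts outside mitosis, did not follow LM1259. It was 53.9, 59.4 and 107 CPM in fertile and 51.4, 56.6 and 68.4 CPM in subfertile heifers, with the highest level in the fertile library LM1330. Its log2FC was -0.19 ± 0.16 (two-sided exact permutation test, P = 0.483), and 0.00 ± 0.10 without LM1330.

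Replication origin licensing and firing held 7 members, 2 of them in the study's table. All 7 had a log2FC above 0 in edgeR (*ORC5* was -0.07 with voom), beside 51.8% of all genes. Of the 7, 1 was called, beside 0.661% of all genes, and it is in that table, so nothing is read from these counts. The median log2FC of the 7 was 0.15, and 0.08 without LM1259. *MCM10* (ENSBTAG00000016406), which helps to activate the loaded helicase, was 5.49, 7.54 and 9.29 CPM in fertile and 8.91, 10.4 and 23.4 CPM in subfertile heifers. As for *OIP5*, 5 of 6 subfertile heifers were above every fertile heifer. These 2 of the 58 members had at least 5 such heifers, beside 0.515% of all genes tested, and since both are in the study's table nothing is read from this. The log2FC of *MCM10* was 0.72 ± 0.24, and 0.43 ± 0.16 without LM1259, where it was below the fold threshold.

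*CDC6* loads the helicase together with the origin recognition complex. It was 3.14, 4.35 and 6.31 CPM in fertile and 3.70, 5.65 and 14.8 CPM in subfertile heifers, with 10.4 CPM in LM1265. Its log2FC of 0.71 ± 0.35 became 0.38 ± 0.30 without LM1259. *MCMBP*, an MCM-binding protein and the member of this role with the highest mean CPM, was 78.9, 85.9 and 133 CPM in fertile and 66.7, 91.7 and 132 CPM in subfertile heifers. The groups covered almost the same range, and its log2FC was 0.05 ± 0.16 (two-sided exact permutation test, P = 0.833).

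**Figure D4:**
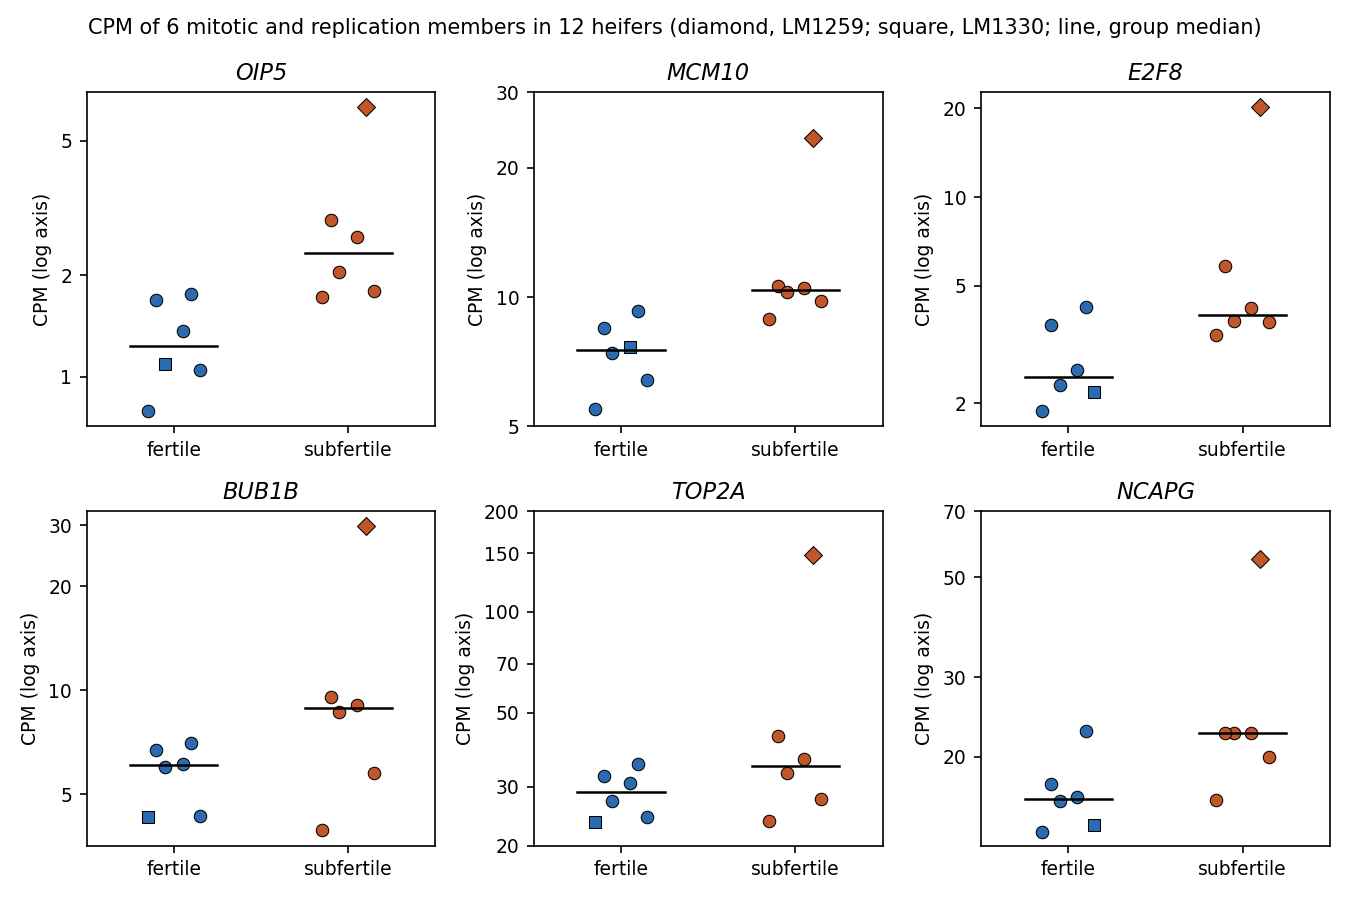
Level in CPM (log axis) of OIP5, MCM10, E2F8, BUB1B, TOP2A and NCAPG in each heifer; points are heifers, the line is the group median, and the diamond and square mark LM1259 and LM1330. LM1259 is the highest point in all 6 panels, and the other 5 subfertile heifers reach at most 42.6 CPM for TOP2A and 2.92 CPM for OIP5.

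*ORC5*, a subunit of the origin recognition complex named after its values were seen, had a pattern of its own. Its levels were 36.4 CPM in LM1251, 31.4 in LM1259, 29.4 in LM1298 and 23.0 in LM1286, of which the first pair is subfertile and the second fertile. The other 8 libraries lay between 7.06 and 11.4 CPM, with nothing between 11.4 and 23.0 CPM. The group medians were 11.3 CPM in fertile and 10.1 CPM in subfertile heifers, and the log2FC was 0.15 ± 0.45. The subunits *ORC1* and *ORC6* did not show this division, with *ORC6* between 26.6 and 35.5 CPM in all 12 libraries.

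E2F factors and their S phase targets held 3 members, of which 1 was called, beside 0.661% of all genes called higher. That member is in the study's table, so nothing is read from this count. *E2F8* (ENSBTAG00000017446) is an atypical E2F that represses transcription late in S phase. In edgeR with all libraries it had the largest log2FC of the 58 members, 1.28 ± 0.45. That of *OIP5* was larger with voom (1.04 beside 0.97), and in edgeR without LM1259 (0.77 beside 0.57). Levels of *E2F8* were 1.88, 2.45 and 4.25 CPM in fertile and 3.40, 3.99 and 20.2 CPM in subfertile heifers. The 6 subfertile levels again exceeded the median of the fertile group, but only LM1259 and LM1265 (5.83 CPM) were above every fertile heifer. Without LM1259 the log2FC was 0.57 ± 0.26, which edgeR placed outside the P threshold and both DESeq2 and voom inside both thresholds.

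*CDCA7*, an E2F and MYC target and the member of this role with the highest mean CPM, was 179, 206 and 256 CPM in fertile and 173, 205 and 249 CPM in subfertile heifers. LM1259 was within that range, and the log2FC was -0.03 ± 0.12 (two-sided exact permutation test, P = 0.762). The ratio of LM1259 to the middle of the other 11 libraries was thus 1.24 for *CDCA7* and 5.48 for *E2F8*, the lowest and the highest of this role.

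The 30 remaining members have roles in meiosis and repair, chromatin, transcription, cell cycle arrest, transport and signalling, and some of them also act in mitosis. Among the latter are *SMC1A* and *NEK9*, whose ratio of LM1259 to the middle of the other libraries was 1.01 and 0.931. Of these 0 were called in edgeR, DESeq2 or voom, the smallest unadjusted edgeR P was 0.100, and log2FC ran from -0.70 to 0.23. Since none is in the study's table this count was largely fixed by how they were named. LM1259 was the highest library for 1 of the 30, beside 12.4% of all genes, and was 2-fold or more above the middle of the other libraries for 0 of them, beside 2.57% of all genes.

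The CDK inhibitors and CDK-binding proteins held 4 members, all with a log2FC below 0, beside 6271 of all 13012 genes, and a median of -0.18. *CDKN1A* (p21), the inhibitor induced by p53 that halts the cycle, was 9.82, 19.3 and 52.4 CPM in fertile and 7.82, 10.2 and 22.9 CPM in subfertile heifers. The highest level was in LM1330 and the lowest in LM1259, and the groups overlapped between 9.82 and 22.9 CPM. Its log2FC was -0.70 ± 0.40, and -0.26 ± 0.32 without LM1330 (two-sided exact permutation test with all heifers, P = 0.212). *CDK2AP2*, a CDK2-associated protein, was 64.0, 88.6 and 114 CPM in fertile and 51.9, 86.4 and 116 CPM in subfertile heifers, with a log2FC of -0.07 ± 0.17 (exact permutation test, P = 0.667). Like *CDKN1A*, the inhibitor of CDK4 and CDK6 *CDKN2D*, named after its values were seen, was highest in LM1330, at 121 CPM beside 74.8 CPM or less elsewhere.

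Among the 7 CDKs, related kinases and activators, *CDK20* had the smallest P, with 39.8, 45.2 and 47.4 CPM in fertile and 40.5, 49.2 and 59.7 CPM in subfertile heifers. Although 4 subfertile heifers were above every fertile heifer, the log2FC was 0.15 ± 0.10 (exact permutation test, P = 0.152). *CDK11*, a kinase of transcription and splicing, was 85.9, 108 and 125 CPM in fertile and 81.9, 109 and 121 CPM in subfertile heifers. Its log2FC was -0.03 ± 0.11 (exact permutation test, P = 0.794).

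The 4 cyclins, C, I, Y and Y-like 1, act in transcription and at membranes and are not those that drive S phase or mitosis. *CCNI* was 298, 444 and 627 CPM in fertile and 317, 369 and 417 CPM in subfertile heifers, and its mean of 401 CPM was the highest of the 58 members. Each of the 6 subfertile levels was below the median of the fertile group, and the highest level was in LM1330. That library was the highest for 5 of the 30 remaining members, near its share of 13.7% of all genes. The log2FC of *CCNI*, -0.24 ± 0.16, became -0.11 ± 0.13 without LM1330 (exact permutation test with all heifers, P = 0.268).

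The NIMA-related kinases were *NEK7*, known also for inflammasome assembly, and *NEK9*, which acts in spindle assembly. *NEK7* was 85.8, 101 and 115 CPM in fertile and 72.3, 102 and 107 CPM in subfertile heifers, with a log2FC of -0.04 ± 0.11 (exact permutation test, P = 0.710). *NEK9* was 64.3, 70.8 and 88.1 CPM in fertile and 60.0, 66.9 and 82.4 CPM in subfertile heifers, with a log2FC of -0.06 ± 0.10 (exact permutation test, P = 0.502). Both were highest in the fertile library LM1244 and lowest in the subfertile library LM1283.

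Cohesin and its relatives were represented by the cohesin subunit *SMC1A* and by *SMCHD1*, a chromatin protein of X inactivation. *SMC1A* was 21.0, 33.7 and 39.8 CPM in fertile and 17.6, 29.8 and 40.4 CPM in subfertile heifers, with a log2FC of -0.18 ± 0.22 (exact permutation test, P = 0.424). *SMCHD1* was 214, 239 and 303 CPM in fertile and 151, 256 and 318 CPM in subfertile heifers, with a log2FC of 0.00 ± 0.15 (exact permutation test, P = 0.922). The most and least abundant libraries for *SMCHD1* were both subfertile, LM1246 and LM1283.

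Of the MCM relatives of meiosis and repair, *MCM9* was 21.4, 23.3 and 29.1 CPM in fertile and 21.4, 25.0 and 27.5 CPM in subfertile heifers, with a log2FC of 0.00 ± 0.11 (exact permutation test, P = 0.976). *MCMDC2*, a meiotic gene, was between 0.0579 and 1.21 CPM, which is 1 to 23 reads per library, and its log2FC of -0.18 ± 0.56 had the largest standard error of the members named (exact permutation test, P = 0.749). At this depth a difference of the size of its standard error could not be resolved.

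Transport kinesins held 7 members, of which 3 had a log2FC above 0 and 4 below. *KIF5B*, the conventional kinesin heavy chain, was 83.6, 96.7 and 147 CPM in fertile and 79.6, 99.8 and 166 CPM in subfertile heifers, with a log2FC of 0.12 ± 0.18 (exact permutation test, P = 0.597). *KIF3B*, a motor of cilia and vesicles, was 82.5, 93.0 and 99.4 CPM in fertile and 79.2, 99.1 and 110 CPM in subfertile heifers, with a log2FC of 0.08 ± 0.09 (exact permutation test, P = 0.342). The highest library of both was LM1246.

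Finally, *CDC40*, a splicing factor, and *CDC37L1*, an HSP90 co-chaperone, carry a CDC name without a role in division. *CDC40* was 34.9, 43.4 and 46.3 CPM in fertile and 33.7, 43.1 and 55.5 CPM in subfertile heifers, with a log2FC of 0.06 ± 0.12 (exact permutation test, P = 0.703). *CDC37L1* was 17.6, 20.5 and 24.6 CPM in fertile and 20.2, 22.0 and 26.2 CPM in subfertile heifers, with a log2FC of 0.15 ± 0.11 (exact permutation test, P = 0.167). In all, 19 members outside the study's table were tested in this way, with P between 0.152 and 0.976 before any adjustment.

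**Figure D5:**
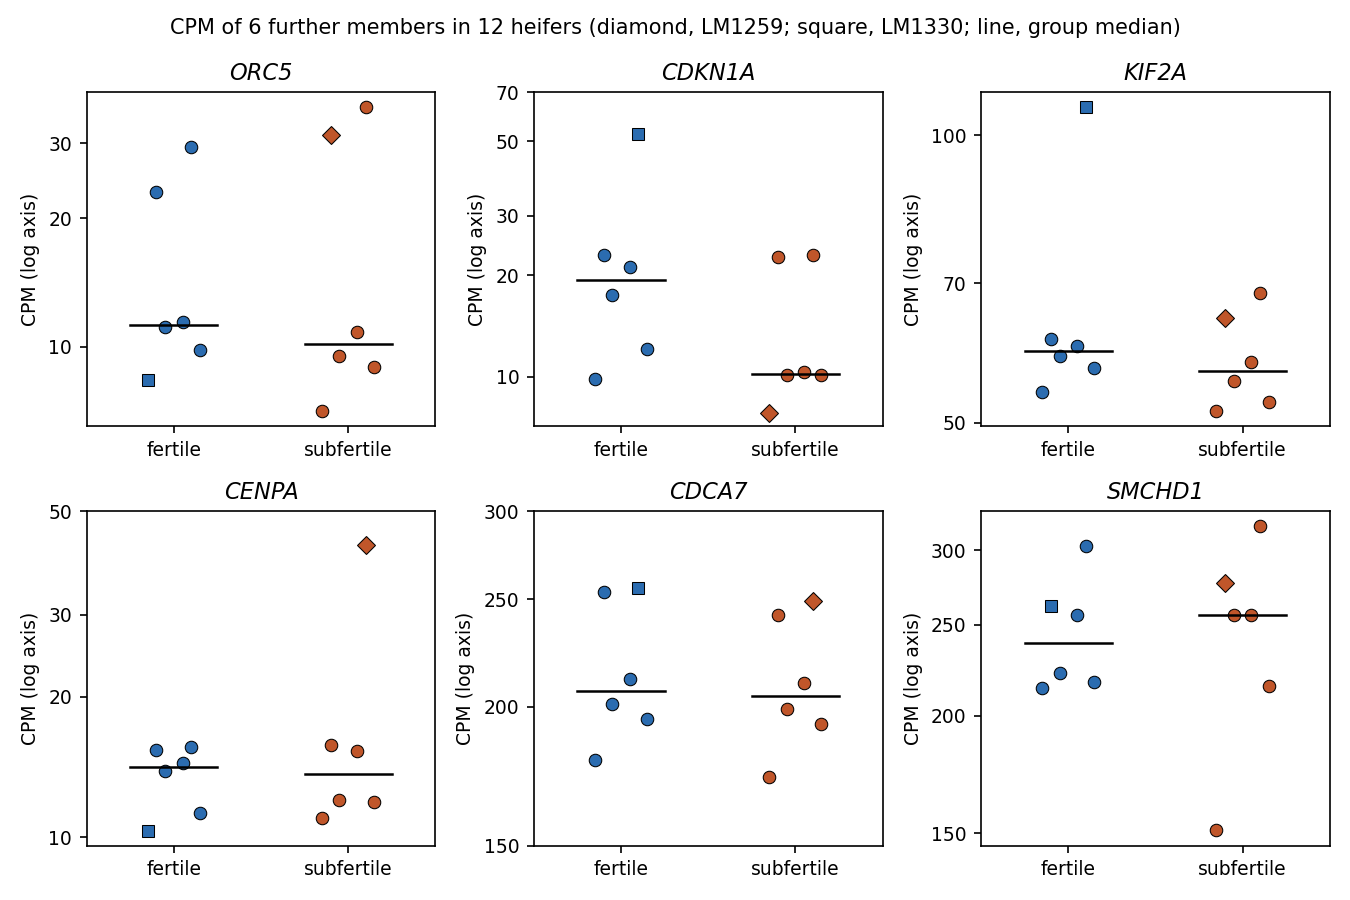
Level in CPM (log axis) of ORC5, CDKN1A, KIF2A, CENPA, CDCA7 and SMCHD1 in each heifer; points are heifers, the line is the group median, and the diamond and square mark LM1259 and LM1330. ORC5 has 4 libraries at 23.0 CPM or more over both groups, LM1330 is highest for CDKN1A and KIF2A, and LM1259 is highest for CENPA.

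Cell cycle genes with other names were read from a list of 87 genes of S phase and mitosis, of which 29 were named and tested. In edgeR 10 of the 29 were called higher and 0 lower, beside 0.661% and 0.738% of all genes. All 10 were among the 14 that are in the study's table, so nothing is read from this count. Without LM1259, 1 was called higher. LM1259 was the highest library for 25 of the 29, 12 of them among the 15 genes outside the study's table, beside 12.4% of all genes. Names came from the same supplementary tables as those of the members, so nothing is read from these counts either. The median log2FC of the 29 was 0.57, and 0.23 without LM1259.

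*MKI67*, which encodes the proliferation antigen Ki-67 and is not in the study's table, was 65.1, 85.6 and 115 CPM in fertile and 77.2, 93.0 and 248 CPM in subfertile heifers. LM1259 held the 248 CPM, the next library had 125 CPM, and the log2FC of 0.47 ± 0.27 became 0.12 ± 0.16 without it. *RRM2*, a ribonucleotide reductase subunit for DNA synthesis, was 22.0 to 40.8 CPM in fertile and 33.6 to 119 CPM in subfertile heifers, and its log2FC of 0.65 ± 0.29 became 0.23 ± 0.16. *SGO2*, a protector of centromeric cohesion, was highest in LM1313 instead (134 CPM beside 89.0 CPM in LM1259), and is in the study's table. Its log2FC was 0.57 ± 0.20, 0.54 ± 0.22 without LM1259, where it was the gene still called, and 0.36 without LM1313, where it was not called.

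*CTCF*, a chromatin organizer that is also on the list, was 188 to 209 CPM in fertile and 192 to 204 CPM in subfertile heifers, with a log2FC of -0.01 ± 0.07.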

How the data were processed

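The authors extracted RNA in a single batch, made poly(A)-selected, strand-specific libraries, sequenced them in 1 run with the groups spread over the lanes, and mapped reads with STAR 2.7.5 to ARS-UCD1.3 with the Ensembl annotation (FastQC 0.11.9 and MultiQC 1.12 for quality). They deposited raw read counts per gene, neither normalized nor filtered. The strand setting behind these counts is not given in the sources used here. Lanes were not given per heifer.

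Genes were kept with filterByExpr (fertility groups, minimum count of 10), scaled by TMM and compared by edgeR 4.0.16 (quasi-likelihood F test, R 4.3.3), in a model of fertility group alone, with Benjamini-Hochberg adjustment over all genes kept. The alternatives included voom (limma 3.58.1) and DESeq2 1.42.0 with its independent filtering off. SE is the absolute log2FC divided by the square root of F. CPM uses the TMM-scaled library size, and log2 CPM a prior count of 2. Exact permutation tests were two-sided, over all 924 splits of 12 heifers, with 0.00216 as their smallest P. Libraries of a group were not duplicates (smallest chi-square per gene of 18.3). The tests were tested on simulated data, and no result of that is given or relied on here.

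The members, the lists by role and the list of other cell cycle genes were chosen with earlier results of these data known. Members named are those in the study's table of differentially expressed genes and, in each role, the one with the highest mean CPM and the one with the smallest edgeR P; others were named after their values were seen. Gene names were matched within the table row that pairs them with an identifier. Promoter and protein sequences, and coordinates, were not used here. RefSeq symbols are of ARS-UCD2.0. The authors' own fold changes and P were not used.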

Additional observations from a re-analysis of the deposited data

Results flagged for a closer look

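In the 34 members named by rule, each group of 6 heifers was searched for a highest or lowest level that lay far from the nearest other one, as the gap divided by the range of the group (Dixon's criterion). Of the 68 groups searched 19 passed. Chance passes about 1 in 20 for independent, normal values, which is no fair benchmark here, since CPM was not log-transformed and 15 of the members were named through a table made from these libraries. Of the 19, 13 are subfertile groups, and in all 13 the distant level is that of LM1259. Ordered by the gap as a share of the range, these are *MCM10* (0.885), *CDCA2* (0.874), *E2F8* (0.856), *NDC80* (0.847), *TOP2A* (0.847), *NCAPG* (0.829), *NCAPH* (0.795), *BUB1B* (0.783), *KIF15* (0.772), *CENPN* (0.749), *OIP5* (0.739), *CENPH* (0.701) and *CENPE* (0.678). All 13 are in the study's table of differentially expressed genes, and the 13 values are not independent of each other, since they come from 1 animal. The other 6 are fertile groups. LM1330 was the distant high library for *KIF2A* (0.862, at 107 CPM) and *CDKN1A* (0.692, at 52.4 CPM). LM1244 was so for *MCMBP* (0.756, at 133 CPM), *NEK9* (0.649, at 88.1 CPM) and *KIF5B* (0.641, at 147 CPM). LM1247 was the distant low library for *CENPN* (0.680, at 2.63 CPM). Levels of the named blood cell markers in LM1259 and LM1330 stand beside the levels of the members in the report, and their part was not tested.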

How the results depend on the processing

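The 11 members called higher were 5 with voom and limma and 0 among the members outside the study's table of differentially expressed genes. Leaving out 1 library gave 1 (without LM1259) to 14 (without LM1313), and it gave 0 to 1 members called lower, *CDKN1A* in the 3 cases. Chosen after seeing the data, DESeq2 and voom without LM1259 each called 2 (*OIP5* and *E2F8*), and leaving out both LM1259 and LM1330 left 1. With the RTS as a term 9 were called, without *KIF15* and *TOP2A*, and under library size alone 8, without *CENPE*, *CENPH* and *KIF15*. With the share of the most abundant gene as a term, also chosen after seeing the data, 11 were called, of which 10 were shared, *TOP2A* being lost and *CENPN* gained. With DESeq2, 11 of its 15 calls were those of edgeR, and under RLE size factors all 11 were kept. For the changes of direction given next, a log2FC that rounds to 0.00 was taken as without direction. Among the members named by rule this is so for *SMCHD1* and *MCM9* with all libraries. Counts of members above and below 0 elsewhere used the sign before rounding. Among the other members named by rule, none turned direction in the fits with another normalization, filter or tool or with the RTS as a term, whereas *ORC5* was -0.07 with voom and *CTCF* 0.01 under library size alone. When 1 library was left out, the log2FC crossed 0, with ranges of -0.03 to 0.12 for *CDC40*, -0.09 to 0.02 for *CDCA7*, -0.08 to 0.04 for *CDK11*, -0.18 to 0.04 for *CDK2AP2*, -0.01 to 0.24 for *CENPC*, -0.03 to 0.25 for *KIF5B*, -0.07 to 0.18 for *MCMBP*, -0.36 to 0.18 for *MCMDC2*, -0.08 to 0.03 for *NEK7*, -0.20 to 0.44 for *ORC5* and -0.03 to 0.53 for *CENPA*. It ran from -0.09 to 0.11 for *SMCHD1* and from -0.03 to 0.05 for *MCM9*. Without LM1259, DESeq2 gave -0.04 for *CENPA* and -0.10 for *ORC5*, and voom -0.04 and -0.31. Without both LM1259 and LM1330, *CDK2AP2* was 0.01, *MCMBP* -0.02, *CENPA* -0.10 and *ORC5* -0.24. Median summed CPM per group moved by less than the spread between heifers under every scaling and library left out. Names from the reference table could not be used as planned, since it links no Ensembl identifiers. No paired analysis was possible because the replicate numbers follow the order of the samples and pair no heifers. Depth limits *MCMDC2*, with 1 read in its lowest library.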

Other observations

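Of the remaining 30 members, the subfertile library LM1246 was the highest for 10 and the lowest for 5, beside 15.0% and 14.6% of all genes tested. The subfertile library LM1283 was the lowest for 8 and the highest for 4, beside 13.8% and 13.3%, so that the counts for the lowest in LM1246 and the highest in LM1283 were near those shares. As examples chosen after their values were seen, *KIF5B* was 166 CPM in LM1246 and 79.6 CPM in LM1283, *SMCHD1* was 318 and 151 CPM, and *CDK2AP2* was 51.9 and 116 CPM. The share of reads held by the most abundant gene was 3.45% in LM1246 and 7.40% in LM1283. With this share as a term in the fit, the log2FC between groups was 0.13 for *KIF5B*, 0.02 for *SMCHD1* and -0.08 for *CDK2AP2*, beside 0.12, 0.00 and -0.07 without it.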
